A study of Caenorhabditis elegans with 4 samples.

Results

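Kinesins and dyneins are the motor proteins that walk along microtubules, and 45 of the 20040 genes measured in early embryos of C. elegans carry symbols of their chains or of dynactin, the complex that dynein works with. The rule by symbol took the klp, klc, dhc, dli, dlc, dyci, dylt, dyrb and dnc families together with bmk-1, unc-104, unc-116, vab-8, osm-3, che-3, kap-1 and xbx-1, and left out zen-4. It is not a full count of the genes that encode these proteins, and it includes 1 annotated pseudogene. All 45 members that this rule finds in the RefSeq gene table of assembly WBcel235 were on the array, as 62 annotated transcripts with 3 probes each. The samples were total RNA of 4 preparations of N2 early embryos, which is the wild-type strain, freed with bleach from gravid adults that had grown in liquid culture. They formed 1 group, so no mutant, treatment or other stage was compared. The preparations held a mixture of stages, and 2 of the 4 samples were treated with DNase in the study's methods but all 4 in the sample labels, so values are not divided by that treatment.

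Most kinesins walk toward the growing end of the microtubule, carrying cargo or pushing on microtubules. A few walk toward the other end or take microtubules apart. Cytoplasmic dynein 1 moves toward the minus end with the help of dynactin, and in the C. elegans zygote it moves the pronuclei together, positions the spindle and works at kinetochores. Kinesin-II, OSM-3 and a second dynein carry particles along sensory cilia, which in this animal are found on neurons that the youngest embryos do not yet have. Many of the RNAs of an early embryo were loaded by the mother, and array values do not separate maternal from newly made RNA. In whole embryos, fewer cells of a type and less RNA per cell cannot be told apart either.

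In the early embryo, signals of most motor genes passed a level set by chemoreceptor genes, among them every gene of cytoplasmic dynein 1 and dynactin. The kinesin groups were mixed, and the dynein-2 chains and the remaining dynein chains did not pass it. Values are log2 of RMA intensities, averaged over the transcripts of a gene. As a yardstick in place of a background, the serpentine receptor level of a sample is the value that 2.5% of 1343 chemoreceptor genes of mature neurons exceed, and a gene had to pass it in all 4 samples. That level lay at log2 8.47, 8.59, 8.70 and 8.70 in replicates 1 to 4. Of the 45 motor genes, 28 (62.2%) were above it in every sample, 3 in some samples and 14 in none, against 8421 (42.0%) of all 20040 genes. Kinesin genes, counted with the light chains, kap-1 and the annotated pseudogene klp-10, were above it in 16 of 22 cases. Genes of dynein and dynactin were above it in 12 of 23, and all 12 belong to dynein 1 or dynactin. The median motor gene had a log2 value of 12.27 and a z-score, the mean standardized over all genes, of 1.01, against 7.82 and -0.27 for the median of all genes. A gene below the level is not shown to be silent, since probes differ in affinity and the files carry no detection call. For the same reason, a difference in intensity between 2 genes is no measure of a difference in RNA amount.

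**Figure D1:**
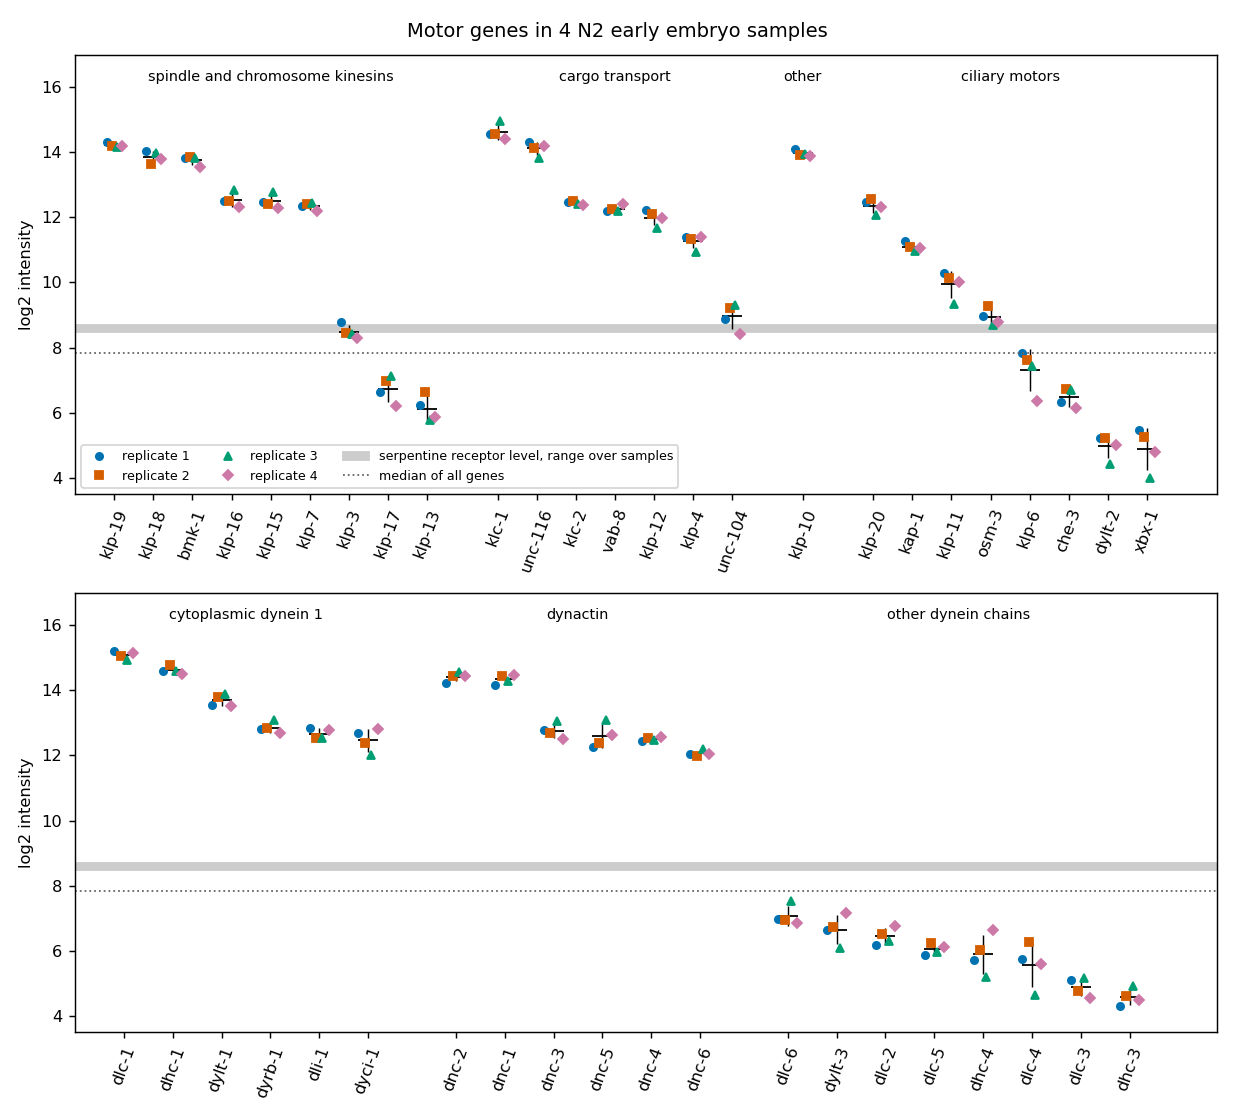
Log2 intensity of each of the 45 motor genes (x axis, by role) in the 4 samples, with the mean and SD in black. The grey band spans the serpentine receptor level of the 4 samples (8.47 to 8.70) and the dotted line is the median of all genes (7.82). All 12 chains of cytoplasmic dynein 1 and dynactin lie above the band and all 8 other dynein chains lie below it.

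Ranked with all genes of the array into 5 equal bins, 12 of the 45 motor genes (26.7%) fell in the highest bin, which holds 20% of genes by construction. A further 16 fell in the bin below it, and these 28 were the members above the serpentine receptor level. The share near the top depended on the cut, with 23 of the 45 in the highest 25% of genes. Only 4 motor genes, dylt-2, xbx-1, dlc-3 and dhc-3, fell in the lowest bin, and all 4 are named as dynein chains. No kinesin gene fell there. The distribution thus had more members near the top than at the bottom, with an interquartile range of z-scores from -0.59 to 1.18.

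**Figure D2:**
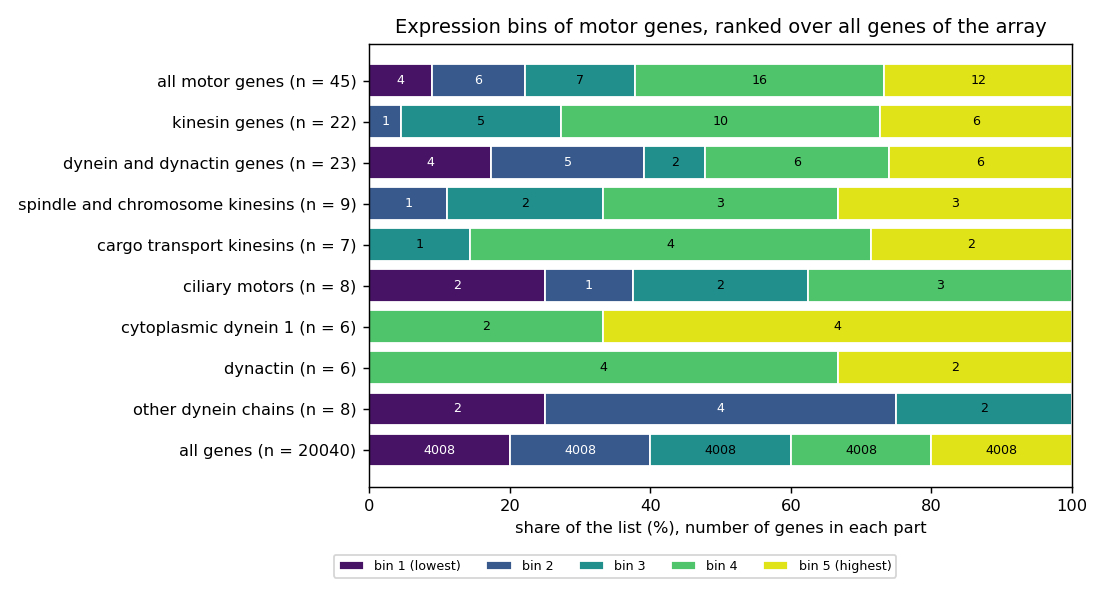
Share of each group of motor genes (rows, with the number of genes) in the 5 equal expression bins of all 20040 genes, with gene counts in the bars and all genes in the last row. The 6 genes of cytoplasmic dynein 1 lie in the highest 2 bins, 4 of them in the highest, and no ciliary motor gene reaches the highest bin.

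Every subunit gene of cytoplasmic dynein 1 was above the serpentine receptor level in all 4 samples, as were 42.0% of all genes. The heavy chain gene dhc-1, which encodes the motor subunit itself, had log2 values of 14.60, 14.77, 14.60 and 14.51 in replicates 1 to 4, a mean of 14.62 ± 0.11 (SD, n = 4). The light chain gene dlc-1, whose LC8-type product also binds many partners other than dynein, was at 15.22, 15.06, 14.93 and 15.14, or 15.09 ± 0.12. It was the highest of all motor genes, at percentile 99.3 of all genes on the array, and its samples did not overlap those of dhc-1. The Tctex-type light chain gene dylt-1 was at 13.54, 13.81, 13.89 and 13.53, or 13.69 ± 0.19. For the roadblock-type light chain gene dyrb-1, the samples read 12.81, 12.84, 13.08 and 12.70, or 12.86 ± 0.16. The light intermediate chain gene dli-1 gave 12.84, 12.53, 12.52 and 12.79, or 12.67 ± 0.17. In the intermediate chain gene dyci-1, whose product joins the motor to dynactin, the samples were at 12.69, 12.37, 11.998 and 12.80, or 12.46 ± 0.36. This was the widest spread of the complex, with replicate 3 the lowest, and samples of dyrb-1, dli-1 and dyci-1 overlapped one another.

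Dynactin, which links dynein to cargo and keeps it on the microtubule, was likewise above the level in all samples for each of its 6 genes. The gene of its largest subunit, dnc-1, had log2 values of 14.16, 14.44, 14.28 and 14.47, a mean of 14.34 ± 0.15 (SD, n = 4). That of dynamitin, dnc-2, was at 14.22, 14.45, 14.57 and 14.44, or 14.42 ± 0.15. Samples of these 2 genes overlapped, and both genes were in the highest of the 5 bins. The shoulder subunit gene dnc-3 was at 12.79, 12.68, 13.06 and 12.51, or 12.76 ± 0.23. For the pointed-end subunit genes, dnc-4 was at 12.44, 12.53, 12.47 and 12.57, dnc-5 at 12.26, 12.38, 13.10 and 12.64, and dnc-6 at 12.04, 11.99, 12.21 and 12.05. Their means were 12.50 ± 0.06, 12.60 ± 0.37 and 12.07 ± 0.09 in that order, so dnc-5 varied most, with its highest value in replicate 3. In 4 of the 6 genes replicate 3 was the highest sample, and in none was it the lowest.

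Other genes of the dynein pathway passed the serpentine receptor level as well, in lists chosen with earlier results of these data known. All 7 listed dynein regulators passed it in every sample, against 42.0% of all genes, and their median log2 value was 13.39. The highest were lin-5, whose product anchors dynein at the cell cortex, at 14.24 ± 0.18, and spdl-1, which recruits dynein to kinetochores, at 13.70 ± 0.12. The lowest were lis-1, the nematode LIS1 gene, at 12.42 ± 0.23 and the cargo adaptor gene bicd-1 at 10.24 ± 0.39. The 4 actin-related and capping protein genes that complete dynactin were all above it too, with cap-2 at 14.84 ± 0.10, cap-1 at 14.08 ± 0.19, arp-11 at 12.47 ± 0.26 and arp-1 at 12.24 ± 0.17.

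The 8 dynein chains listed under neither dynein 1 nor the ciliary motors presented the opposite picture, with none above the level in any sample. They are a remainder by symbol, not a class by function, and 42.0% of all genes passed the level in every sample. The heavy chain genes dhc-3 and dhc-4 were at 4.30, 4.62, 4.92 and 4.48 and at 5.71, 6.01, 5.20 and 6.63. Their means of 4.58 ± 0.26 and 5.89 ± 0.60 (SD, n = 4) lay at percentiles 5.45 and 30.3 of all genes, and dhc-3 was the lowest of all motor genes. Among the light chain genes, dlc-6 was at 6.98, 6.93, 7.51 and 6.86, dylt-3 at 6.63, 6.73, 6.09 and 7.15, and dlc-2 at 6.19, 6.51, 6.30 and 6.75. The dlc-5 samples read 5.87, 6.23, 5.95 and 6.12, those of dlc-4 5.74, 6.26, 4.63 and 5.58, and those of dlc-3 5.09, 4.76, 5.15 and 4.54. Light chains of the dlc family thus stood at both ends of the list, with dlc-1 highest and the other 5 dlc genes at means of 4.89 to 7.07. The SDs of the 8 genes ran up to 0.68, and their order among themselves was mostly within the spread of the samples.

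Of the 9 spindle and chromosome kinesins, 6 (66.7%) were above the level in every sample, against 42.0% of all genes, and the group is small. The highest was klp-19, a chromokinesin of the kinesin-4 family that acts in chromosome alignment, at 14.32, 14.18, 14.15 and 14.18, or 14.21 ± 0.08 (SD, n = 4). The gene klp-18, a kinesin needed for the acentrosomal spindle of oocyte meiosis, was at 14.04, 13.65, 13.98 and 13.79, or 13.87 ± 0.18. For bmk-1, the kinesin-5 gene of the worm, the samples were at 13.83, 13.86, 13.81 and 13.53, or 13.76 ± 0.15. These 3 genes made up the group's share of the highest bin, and samples of klp-18 and bmk-1 overlapped. The microtubule-depolymerizing kinesin gene klp-7 followed at a mean of 12.35 ± 0.11.

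The kinesin-14 genes, whose products move toward the minus end, were split. A pair of them, klp-15 and klp-16, which encode nearly identical proteins of the acentrosomal spindle, averaged 12.49 ± 0.21 and 12.54 ± 0.22 (SD, n = 4). The 2 genes moved together across samples, with klp-15 minus klp-16 at -0.03, -0.11, -0.05 and -0.02 and an SD of 0.04, so the difference varied far less than either gene. Whether their probes also bind RNA of the other gene was not tested. In contrast, klp-3 was at 8.77, 8.45, 8.42 and 8.30, or 8.48 ± 0.20, above the serpentine receptor level in replicate 1 alone. The klp-17 samples, at 6.65, 6.98, 7.12 and 6.21, were below it throughout. The lowest kinesin gene of all was klp-13, a member of the kinesin-8 family, at 6.25, 6.63, 5.78 and 5.85, or 6.13 ± 0.40.

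Among cargo transport kinesins, 6 of 7 genes (85.7%) were above the level in every sample, against 42.0% of all genes. The remaining gene was above it in 3 of 4. The kinesin-1 heavy chain gene unc-116 had log2 values of 14.33, 14.12, 13.83 and 14.20, a mean of 14.12 ± 0.21 (SD, n = 4), and its light chain gene klc-1 of 14.55, 14.55, 14.96 and 14.40, or 14.62 ± 0.24. In replicate 3 the heavy chain gene was at its lowest and the light chain gene at its highest. The second light chain gene, klc-2, was at 12.47, 12.50, 12.43 and 12.37, or 12.44 ± 0.06. This value averages 4 transcripts at 11.43 to 14.91 with SDs of 0.11 to 0.28, and klc-2 was at 13.30 when transcripts were averaged on the linear scale and at 14.91 when the highest stood for the gene. The kinesin-like gene vab-8, which is known for guiding posterior cell and axon migrations, was at 12.21, 12.27, 12.19 and 12.41, or 12.27 ± 0.10. For klp-12, a kinesin-4 family gene, the samples read 12.21, 12.11, 11.69 and 11.98, and for klp-4, of the kinesin-3 family, 11.40, 11.35, 10.95 and 11.40. Samples of klp-12 and klp-4 did not overlap, but both genes average unlike transcripts. In every sample, klp-12 transcript a, at a mean of 10.68, lay below klp-4 transcript c, at 12.28. Far lower lay unc-104, the kinesin-3 gene of synaptic vesicle transport in neurons, at 8.88, 9.23, 9.30 and 8.43, or 8.96 ± 0.40, which crossed the serpentine receptor level in replicates 1 to 3 and not in replicate 4.

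Of 9 genes that connect kinesins to cargo, 8 were above the level in all samples, against 42.0% of all genes. The highest were the mitochondrial adaptor genes miro-2 at 14.85 ± 0.10 and miro-1 at 14.15 ± 0.13. The lowest were trak-1, named for another mitochondrial adaptor, at 11.47 ± 0.21 and the scaffold gene jip-1 at 8.45 ± 0.36, which passed the level in 2 of 4 samples. Neuronal marker genes gave a mixed picture beside unc-104, with 6 of 9 above the level and a range of 5.59 to 14.27. Among them, the synaptic genes rab-3 and snt-1 were at 5.90 ± 0.65 and 5.59 ± 0.42 and unc-13 at 7.04 ± 0.64, below the level in every sample, and snb-1 was at 14.27 ± 0.21.

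One further kinesin-like gene, klp-10, is annotated as a pseudogene in RefSeq, yet its log2 values were 14.10, 13.91, 13.94 and 13.89, a mean of 13.96 ± 0.10 (SD, n = 4) at percentile 91.7 of all genes. Both of its annotated transcripts, a and b, were high, at 13.94 ± 0.21 and 13.98 ± 0.06. A contribution of related kinesin RNA to these probes was not tested.

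The 8 ciliary motors were divided, with 3 genes (37.5%) above the level in every sample, near the 42.0% of all genes. Another, osm-3, passed it in 3 of 4 samples, and 4 genes passed it in none. The 3 genes above it in every sample were the subunits of heterotrimeric kinesin-II. Its motor gene klp-20 was at 12.48, 12.57, 12.08 and 12.31, or 12.36 ± 0.21 (SD, n = 4), the accessory subunit gene kap-1 at 11.29, 11.09, 10.96 and 11.05, or 11.09 ± 0.14, and the second motor gene klp-11 at 10.30, 10.12, 9.33 and 10.004, or 9.94 ± 0.42. Samples of these 3 genes did not overlap, and klp-11 was the lowest of the 28 motor genes above the level. The osm-3 gene, whose kinesin-2 motor builds the distal part of sensory cilia, was at 8.96, 9.27, 8.69 and 8.79, or 8.93 ± 0.25, with replicate 3 just under the level of that sample. The klp-6 gene, a kinesin-3 gene of ciliated neurons, was at 7.83, 7.61, 7.44 and 6.37, or 7.31 ± 0.65, with replicate 4 the lowest.

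Genes of the ciliary dynein lay far below those of dynein 1 within the distribution of the array. The dynein-2 heavy chain gene che-3 was at 6.32, 6.74, 6.70 and 6.14, or 6.47 ± 0.29 (SD, n = 4), percentile 38.1 of all genes. The light intermediate chain gene xbx-1 was at 5.48, 5.25, 4.01 and 4.80, or 4.88 ± 0.65, and the Tctex-type gene dylt-2 at 5.22, 5.21, 4.43 and 5.02, or 4.97 ± 0.37. Both were in the lowest of the 5 bins, and replicate 3 was the lowest sample of each.

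Genes of the particles these motors carry, listed with the regulator daf-19, were mostly low too. Of 27 genes of intraflagellar transport and the BBSome, 6 (22.2%) were above the level in every sample, and the median log2 value of the 27 was 7.10. Without daf-19 it was 5 of 26, with a median of 7.05. The 2 highest were daf-19, the RFX-type regulator of cilium genes, at 13.91 ± 0.08, and dyf-2 at 10.69 ± 0.20. The 2 lowest were bbs-2 at 4.84 ± 0.48 and che-2 at 4.74 ± 0.65. Of 10 marker genes of ciliated sensory neurons, 4 of which are also in the transport list, odr-4 alone was above the level. The chemoreceptor gene odr-10 was at 4.02 ± 0.30 and the channel genes tax-2 and tax-4 were at 7.55 ± 0.26 and 4.89 ± 0.51. In contrast, all 12 marker genes of maternal and early embryonic RNA, such as pos-1 at 14.78 ± 0.10 and spn-4 at 15.47 ± 0.15, were in the highest of the 5 bins. Of the other marker lists, 6 of 10 early zygotic genes, 4 of 9 sperm genes, 1 of 7 adult gut genes and 1 of 6 body muscle genes passed. Over all genes, 42.0% passed the level in every sample. These lists are short and were chosen with earlier results of these data known.

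**Figure D3:**
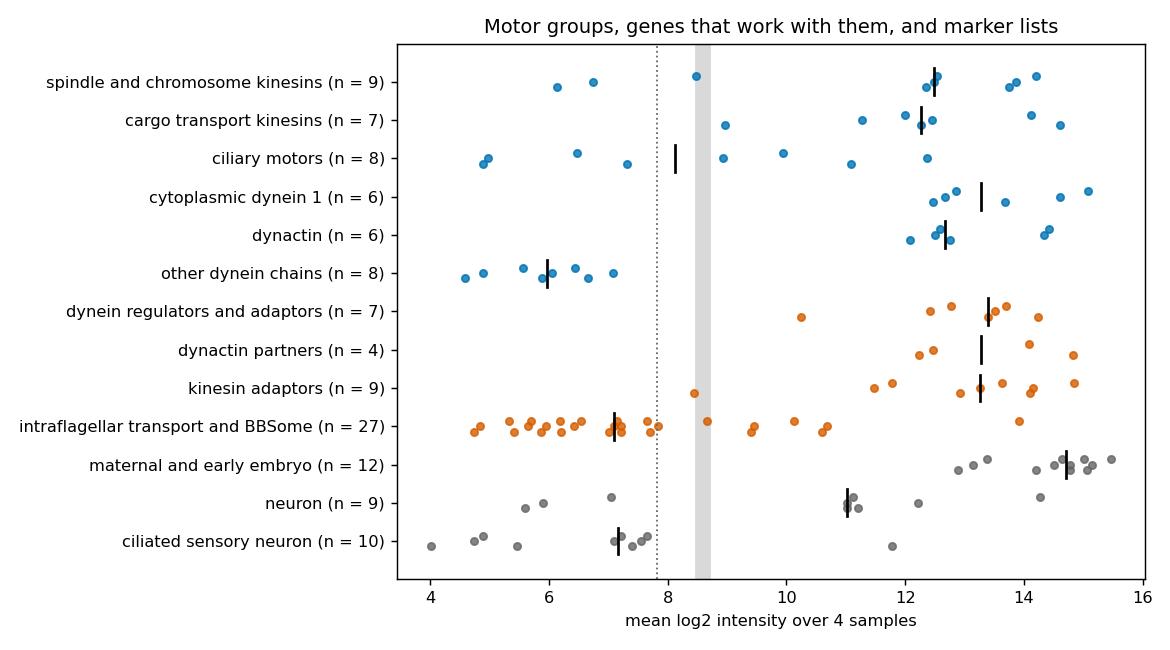
Mean log2 intensity over the 4 samples (x axis) of each gene in the motor groups (blue), lists of genes that work with them (orange) and marker lists (grey), with the median of each list as a black bar, the serpentine receptor level in grey and the median of all genes dotted. The medians of dynein 1 (13.27), dynactin (12.68), dynein regulators (13.39) and kinesin adaptors (13.26) lie above the band, and those of the ciliary motors (8.12) and the intraflagellar transport and BBSome list (7.10) lie below it.

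Ordered by mean, 38 of the 44 neighbouring pairs of motor genes had overlapping ranges of sample values, and in 3 of these 38 the order was still the same in all 4 samples (dyrb-1 and dnc-3, osm-3 and klp-3, dlc-4 and dylt-2). The order is one of intensities. The 6 gaps without overlap followed dlc-1, dylt-1, klp-12, kap-1, klp-11 and klp-3, and that after klp-12 lay between averages of unlike transcripts. The last 3 mark the stretch between kap-1 at 11.09 and klp-6 at 7.31, in which only klp-11, unc-104, osm-3 and klp-3 lay. Motor genes also varied little between samples, with a median SD of 0.22 against 0.35 over all genes. Above the serpentine receptor level the median SD was 0.16 for 28 motor genes and 0.21 for all genes, and among genes not above it 0.37 for 17 motor genes and 0.48 for all genes.

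The 13 members with several annotated transcripts differed in how alike these were. In 9 of them the means of the highest and lowest transcript lay within 0.36 of each other, as for klp-7 (0.09), kap-1 (0.05) and dli-1 (0.06), and in klp-11 within 0.96. The largest difference was in klc-2, whose transcript b was at 15.07, 14.84, 14.83 and 14.89 and whose transcript c was at 11.60, 11.62, 11.24 and 11.24, a difference of 3.48 ± 0.19 (SD, n = 4). In klp-12, transcript b was at 13.41, 13.24, 13.32 and 13.26 and transcript a at 11.01, 10.97, 10.05 and 10.70, a difference of 2.63 ± 0.44. In klp-4, transcripts c and b differed by 2.60 ± 0.44, with means of 12.28 ± 0.34 and 9.69 ± 0.19. In each of these 3 genes the order of the 2 transcripts was the same in all 4 samples and all samples stood apart. Differences of over 1 on the log2 scale occurred in 3 of 13 such motor genes (23.1%) and in 799 of 2193 (36.4%) over all genes. Whether transcripts of a gene share some of their probes, and how the probes differ in affinity, was not tested.

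**Figure D4:**
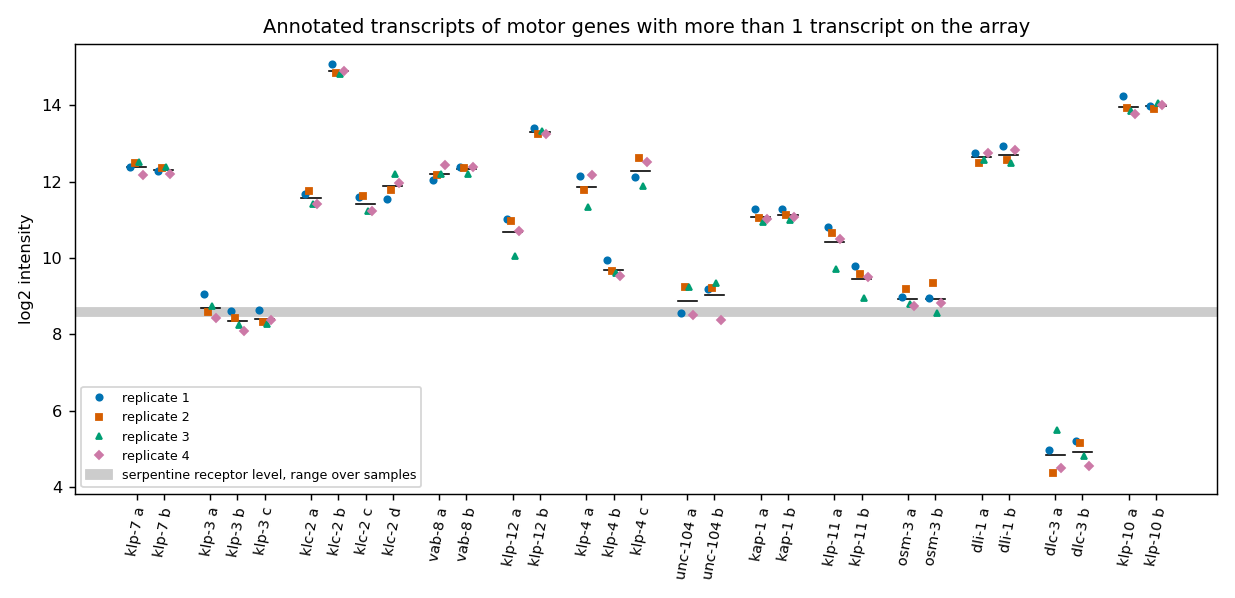
Log2 intensity of the 30 annotated transcripts (x axis, gene and transcript letter) of the 13 motor genes with several transcripts in the 4 samples, with the mean as a bar and the serpentine receptor level as a grey band. Transcripts of klc-2, klp-12 and klp-4 stand apart by 3.48, 2.63 and 2.60, whereas those of the other 10 genes lie within 0.96.

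Of the role groups, the ciliary motors had the widest range of median deviations between samples. Relative to each gene's mean over the 4 samples, the median deviation of the 8 ciliary motors was 0.22, 0.25, -0.26 and -0.07 in replicates 1 to 4, against values between -0.02 and 0.03 for all genes. Quantile normalization keeps these medians over all genes near 0 but does not hold low genes level. The 1343 serpentine receptor genes, mostly low, had sample medians of 4.74, 4.74, 4.81 and 5.41, highest in replicate 4. The 17 motor genes not above the level, some of them ciliary motors, had medians of -0.02, 0.24, -0.09 and -0.13. Replicate 3 was the lowest sample for 6 of the 8 ciliary motors and the highest for none, and the highest was always replicate 1 or 2. The list of intraflagellar transport and BBSome genes, with medians of 0.41, 0.18, -0.29 and -0.37, was lowest in replicates 3 and 4, which were the lowest sample for 12 and 14 of its 27 genes. Marker genes of ciliated sensory neurons, 4 of them shared with that list, had medians of 0.07, 0.17, -0.21 and -0.49, and those of neurons 0.16, 0.15, -0.09 and 0.06. Body muscle genes, which embryos switch on as they differentiate, were at 0.68, 0.34, -0.91 and 0.01, and all 6 were highest in replicate 1 and lowest in replicate 3. Their log2 values had sample medians of 9.29, 9.01, 7.64 and 8.56. The ciliary motors and the ciliary, neuronal and muscle lists were above their means in replicates 1 and 2 and below them in replicate 3. They differed in replicate 4. Maternal marker genes had deviations of 0.02, 0.05, 0.03 and -0.02. Whether the share of older embryos has a part in the deviations of the ciliary motors was not tested.

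Other role groups deviated less. The 9 spindle and chromosome kinesins had medians of 0.07, -0.03, 0.09 and -0.20, with replicate 4 the lowest sample for 6 of them. Dynactin had medians of -0.12, -0.03, 0.14 and 0.03, cytoplasmic dynein 1 of 0.06, -0.02, -0.08 and -0.03, and cargo transport kinesins of 0.03, 0.06, -0.08 and -0.02. The other dynein chains, all of them low, had medians of -0.13, 0.08, -0.12 and 0.05. Replicate 4 also stood apart over the whole array, with correlations across all genes of 0.968 to 0.973 with the other samples, against 0.985 to 0.992 among those (Pearson). Across the 45 motor genes, which are no independent replicates, the correlation between samples was 0.988 to 0.998.

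**Figure D5:**
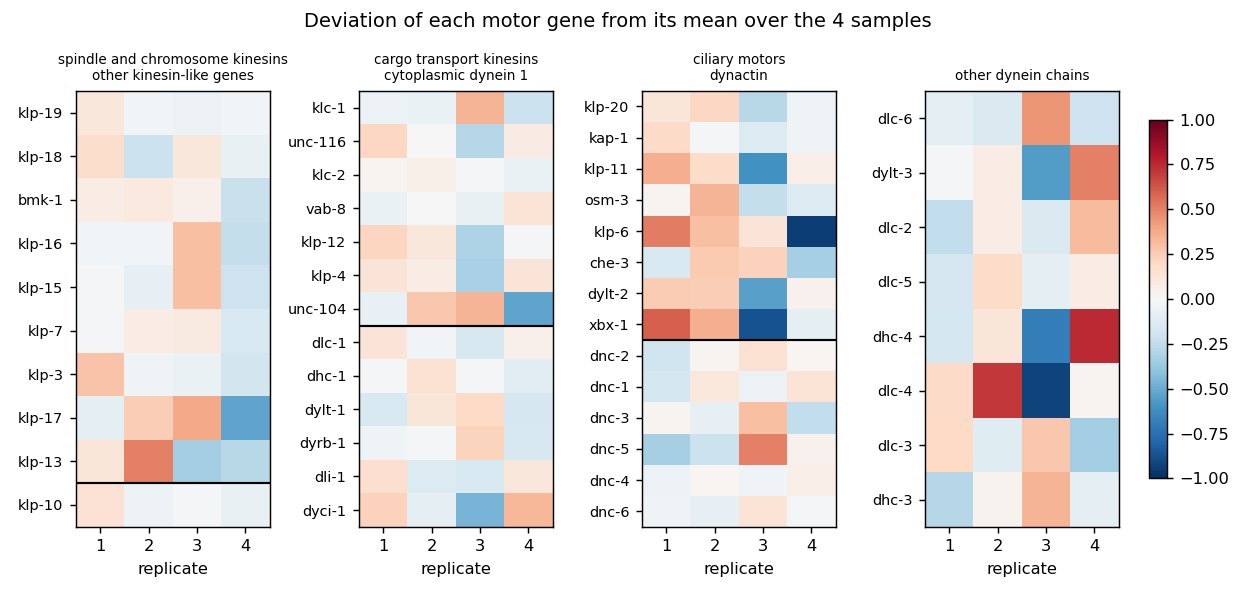
Deviation of each motor gene (rows, by role) from its own mean over the 4 samples (columns), in log2 units from -1 (blue) to 1 (red). Most ciliary motors are red in replicates 1 and 2 and blue in replicate 3, whereas most chains of dynein 1 and dynactin are pale in all samples.

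By chromosome, 42 of the 45 motor genes are autosomal and 27 of these were above the serpentine receptor level, against 7206 of 16737 autosomal genes (43.1%) on the array. Only 3 lie on the X chromosome, of which klp-4 was above the level, while klp-13, at 6.13 ± 0.40, and dylt-2, at 4.97 ± 0.37, were not. Over all genes, 37.7% of those on X were above it.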

How the data were processed

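RNA of 4 N2 early embryo samples was hybridized to single-color NimbleGen expression arrays. According to the methods, the authors applied quantile normalization and RMA, which combines the probes of a transcript into 1 value, and they deposited these values as linear intensities. For the software version and for the annotation and build behind the array, the sources used here give nothing. In the series table, 0 of 92720 values differed from the sample tables, and the column of standard errors was not used.

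Intensities were converted to log2 without a pseudocount or filter, 23180 transcripts were averaged to 20040 genes, and symbols were taken from a RefSeq table of assembly WBcel235 for 19383 of them, without its coordinates. The serpentine receptor level is the 97.5th percentile of 1343 genes of the sr and str families in each sample. Genes were ranked on their mean into 5 bins, as in the methods but without a minimum gene length. The 4 samples come from separate embryo preparations and form 1 group, so counts, medians and SDs are given without tests. The number of arrays limits the precision.

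Members and gene lists were chosen with earlier results of these data known. Sample values are printed for the members named in the rule, for every member of groups with at most 8 genes, for the 3 highest and the 3 lowest of any larger group, and for members whose samples lie on both sides of the level. The marker unc-17 was not matched. Transcripts, klp-15 with klp-16, and a few listed genes were singled out after their values were seen. Alternatives were leaving out each replicate, the highest transcript, the median over samples, linear means, the series table, other percentiles, fewer receptor families, other bins, and other deviations. Counting rules were tested on simulated data. Python 3.11.15, numpy 2.4.6, pandas 2.3.3, scipy 1.17.1 and matplotlib 3.10.9 were used.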

Additional observations from a re-analysis of the deposited data

Results flagged for a closer look

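Judged by the gap relative to the range, a sample stood apart from the other 3 in 2 of the 45 motor genes. Chance alone places about 1 in 20 groups past the limit used. In bmk-1, replicate 4 was below the others at 13.53, against 13.81 to 13.86 in the other 3 samples. In klp-4, replicate 3 was below at 10.95, against 11.35 to 11.40. Both gaps were small in size, with SDs of 0.15 for bmk-1 and 0.22 for klp-4 against a median of 0.22 over motor genes. Of the role groups, dynactin had a sample median set apart above the others in replicate 3, at 13.08 against 12.60 to 12.62. All of these differences lay within members that passed the serpentine receptor level in each sample, and their causes were not tested.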

How the results depend on the processing

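The count of motor genes above the serpentine receptor level was 28 of 45, against 42.0% of all genes. It lay between 28 and 29 when 1 replicate was left out, against 42.1% to 43.3% of all genes. Under the other alternatives it lay between 27 and 31. It was 27 at the 99th percentile and 31 at the 95th, against 38.4% and 46.4% of all genes. The genes that changed sides were osm-3, unc-104 and klp-3, which were gained, and klp-11, which was lost at the 99th percentile. The count in the highest of 5 bins was 12 and lay between 11 and 13 without 1 replicate. It depended on the cut. In the highest of 4 bins, which holds 25% of genes, it moved to 23 of the 45. Members such as vab-8 and dnc-3, at percentiles 75.1 and 79.3, lay between the 2 cuts. In the highest of 10 bins, which holds 10% of genes, it was 9. The median z-score was 1.01 and lay between 0.99 and 1.02 without 1 replicate. Counts in the role groups kept within 1.5 times of their values, with 4 or 2 ciliary motors in place of 3 as the widest change. Levels of single genes moved by more than their SD in 8 of 360 cases, in klc-2, klp-12, klp-4, klp-11 and klp-3, when the highest transcript or the linear mean stood for the gene. With the highest transcript, klc-2 was at 14.91. Of 32 deviations of role groups and of all motor genes in a sample, 7 changed sign when arrays were centred on their median, among them the ciliary motors in replicate 4, at 0.0067 in place of -0.07. No paired analysis was possible because the samples form 1 group.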
